A study of Mus musculus with 18 samples.

Results

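The dividing progenitors described here are cells with transcripts of late cell cycle genes among the descendants of Lgr5+ stem cells in the mouse ileum. Each barcode of the single-cell RNA-seq data marks 1 droplet, usually with 1 cell, and each UMI (unique molecular identifier) counts 1 captured RNA molecule. The cells were chosen by their UMI counts: barcodes of the 4 lineage-traced libraries were taken if they held 500 to 18000 UMIs, 200 to 4000 genes and under 5% mitochondrial UMIs, at least 5 UMIs summed over Ube2c, Cenpf, Top2a, Prc1, Nusap1, Aurka, Cdc20 and Ccnb2, and under 1.5% of their UMIs from the goblet cell genes Muc2, Zg16, Clca1 and Fcgbp together. Of 26266 lineage-traced barcodes within the limits on UMIs, genes and mitochondrial UMIs, 2372 met this rule, out of 51959 such barcodes in all 8 single-cell RNA-seq libraries of the series. WT libraries held 563 and 157 of these cells, and Setdb1-KO libraries 325 and 1327.

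The WT mice carried Lgr5-GFP-CreERT2/nTnG and the Setdb1-KO mice Lgr5-GFP-CreERT2/Setdb1lox/lox/nTnG, in a C57Bl6 background. All were 60 to 65 days old and received tamoxifen once, at 70 mg/kg into the peritoneum, 5 days before the cells were taken, so the knock-in, the Cre and the drug are common to both genotypes. The knock-in places GFP and a tamoxifen-dependent Cre under the Lgr5 promoter and is silenced at random in part of the crypts. The nTnG allele switches from tdTomato to GFP where Cre has acted, so that the GFP+ cells sorted for are Lgr5+ cells and their progeny, although the labels call all of them stem cells. The GFP feature of the counts was detected in 0 and 0 WT dividing progenitors and in 0 and 2 of Setdb1-KO. The descent of single cells is thus taken from the sort and was not checked here. Each genotype has 2 libraries, and since the labels tie neither to an animal, the tests below measure only the spread between libraries.

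Progenitors of the crypt, also called transit-amplifying cells, divide several times between the stem cell zone at the crypt base and the villus, and take up an absorptive or a secretory fate on the way. The genes of the rule act late in the cell cycle. Top2a untangles the replicated DNA, Cenpf and Nusap1 serve the kinetochore and the spindle, Prc1 bundles microtubules at the spindle midzone, Aurka and Ccnb2 drive entry into mitosis, and Ube2c and Cdc20 help the anaphase-promoting complex to end it. Setdb1, the enzyme inactivated in the Setdb1-KO mice, writes trimethylation of histone H3 at lysine 9, a mark of silent chromatin.

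Genes of this kind share promoter elements read by complexes that switch them on late in the cycle: the CHR element and, near it, CCAAT boxes bound by NF-Y. All 8 genes had a promoter in RefSeq (GRCm38.p6), as the 250 bases before and 50 bases after a start site. Of these genes, 7 held both TTTGAA, the letters of the CHR element, and CCAAT, each searched on both strands, while Nusap1 held neither in its window. Among all 32851 RefSeq promoters of this length, 17.9% held TTTGAA, 37.4% held CCAAT and 6.95% held both. The promoters of Nusap1, which lacks the elements, and of 4 genes that hold them follow as examples, with the matches to either motif in capitals, as printed or as its reverse complement. A match describes the letters, not a bound site.
Top2a, chr11:99024140-99024439, minus strand: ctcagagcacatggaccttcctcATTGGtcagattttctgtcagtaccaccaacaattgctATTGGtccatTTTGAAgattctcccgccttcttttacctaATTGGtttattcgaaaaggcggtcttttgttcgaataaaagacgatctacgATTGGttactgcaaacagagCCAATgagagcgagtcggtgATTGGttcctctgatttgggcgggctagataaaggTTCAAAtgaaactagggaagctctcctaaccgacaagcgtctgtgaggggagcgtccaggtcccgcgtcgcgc
Ube2c, chr2:164769679-164769978, plus strand: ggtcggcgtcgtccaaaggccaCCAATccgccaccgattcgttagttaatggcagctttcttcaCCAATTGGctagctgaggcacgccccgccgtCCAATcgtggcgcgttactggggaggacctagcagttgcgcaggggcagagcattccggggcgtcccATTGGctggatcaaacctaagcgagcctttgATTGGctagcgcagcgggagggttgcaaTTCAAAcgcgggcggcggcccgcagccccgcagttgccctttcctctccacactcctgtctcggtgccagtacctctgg
Ccnb2, chr9:70421505-70421804, minus strand: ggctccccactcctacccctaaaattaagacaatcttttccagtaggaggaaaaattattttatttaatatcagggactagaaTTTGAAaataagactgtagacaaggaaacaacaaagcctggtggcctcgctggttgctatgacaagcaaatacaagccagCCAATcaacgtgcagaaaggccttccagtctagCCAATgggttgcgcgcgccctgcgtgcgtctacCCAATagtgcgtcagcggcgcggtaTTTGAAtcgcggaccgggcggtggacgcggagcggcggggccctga
Cenpf, chr1:189688037-189688336, minus strand: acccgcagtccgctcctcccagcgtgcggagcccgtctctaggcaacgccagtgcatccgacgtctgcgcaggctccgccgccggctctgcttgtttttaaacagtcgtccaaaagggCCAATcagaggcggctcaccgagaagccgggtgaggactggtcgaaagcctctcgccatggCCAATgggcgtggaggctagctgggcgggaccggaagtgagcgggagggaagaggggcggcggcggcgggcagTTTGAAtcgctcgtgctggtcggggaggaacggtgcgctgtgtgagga
Nusap1, chr2:119618048-119618347, plus strand: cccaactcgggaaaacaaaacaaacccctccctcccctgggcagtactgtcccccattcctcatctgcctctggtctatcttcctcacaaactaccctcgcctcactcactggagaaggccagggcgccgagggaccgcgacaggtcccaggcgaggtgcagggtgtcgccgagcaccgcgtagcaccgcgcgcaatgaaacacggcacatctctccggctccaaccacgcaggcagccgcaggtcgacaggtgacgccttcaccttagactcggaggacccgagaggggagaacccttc

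The dividing progenitors held a median of 3165 and 4132 UMIs per cell in WT libraries and 4117 and 4214 in Setdb1-KO libraries. Libraries held 16881518 to 43046925 UMIs in all. Pairs of libraries shared 6 to 25 of the barcode sequences within the limits, and 1 dividing progenitor barcode occurred in both Setdb1-KO libraries. RNA free in the suspension differed between the genotypes and bears on several results below. It was read from low-count droplets with at least 100 UMIs, which lie under the rule's minimum and held a mean of 224 to 327 UMIs. Genes of the Paneth cell, the granular cell of the crypt base that secretes defensins, made up 37.8% and 39.5% of the UMIs of these droplets in WT libraries and 7.73% and 14.2% in Setdb1-KO libraries. Per droplet, these were 108 and 105 Paneth UMIs in WT against 17.3 and 46.6 in Setdb1-KO, and the median dividing progenitor held 121 and 157 against 30 and 50. If each dividing progenitor took up the RNA of 1 low-count droplet, that RNA would be 4.34% to 6.88% of all its UMIs.

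Setdb1 itself was counted first. In CPM (the UMIs of a gene in the dividing progenitors of a library, scaled to a common library total, with TMM factors between libraries), it stood at 8.62 and 10.1 in WT libraries and at 12.5 and 9.74 in Setdb1-KO libraries. The genotypes overlapped, and the log2 fold change (Setdb1-KO minus WT, as throughout) was 0.23 (SE 0.41, edgeR adjusted p = 0.964), from 28 UMIs in WT and 86 in Setdb1-KO. The deletion removes exon 3, while the counts come from the 3′ end of the transcript, so this level does not check the deletion.

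The genes of the rule describe the cells and carry no test. Top2a stood at 530 and 313 CPM in WT libraries and at 560 and 394 CPM in Setdb1-KO libraries. Nusap1 followed with 472 and 291 CPM against 501 and 398 CPM, and Ube2c with 349 and 366 CPM against 293 and 516 CPM. For these 3 genes the genotypes overlapped, with the lowest Top2a and Nusap1 level in the second WT library, the one with the fewest dividing progenitors. Prc1 stood at 327 to 436 CPM over the 4 libraries, Cenpf at 130 to 193 CPM and Ccnb2 at 122 to 166 CPM. Aurka, at 34.5 to 43.1 CPM, and Cdc20, at 32.0 to 43.1 CPM, were the lowest of the 8. Fitted log2 fold changes of the 8 genes ran from -0.26 for Cdc20 to 0.36 for Cenpf.

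Cells just inside and just outside the limit of 5 UMIs are given side by side. Barcodes with exactly 5 UMIs of the 8 genes numbered 147 and 38 in WT libraries and 77 and 192 in Setdb1-KO libraries, and barcodes with 4 UMIs 223 and 58 against 114 and 243. Mki67, a marker of cycling cells that the rule does not use, stood at 86.6 and 36.0 CPM (without scaling between libraries) just inside in WT and at 126 and 61.5 CPM in Setdb1-KO. Just outside, it stood at 66.0 and 44.3 CPM in WT and at 79.0 and 53.5 CPM in Setdb1-KO. The cyclin gene Ccnb1 stood at 22.6 and 5.14 CPM just inside in WT and at 37.8 and 21.7 CPM in Setdb1-KO, against 13.9 and 16.1 CPM and 16.4 and 17.8 CPM just outside. Both genes were higher inside the limit in 3 of the 4 libraries and lower in the second WT library. The limit cuts through a continuous fall in the number of barcodes, as the plot of mitosis UMIs per barcode shows.

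**Figure D1:**
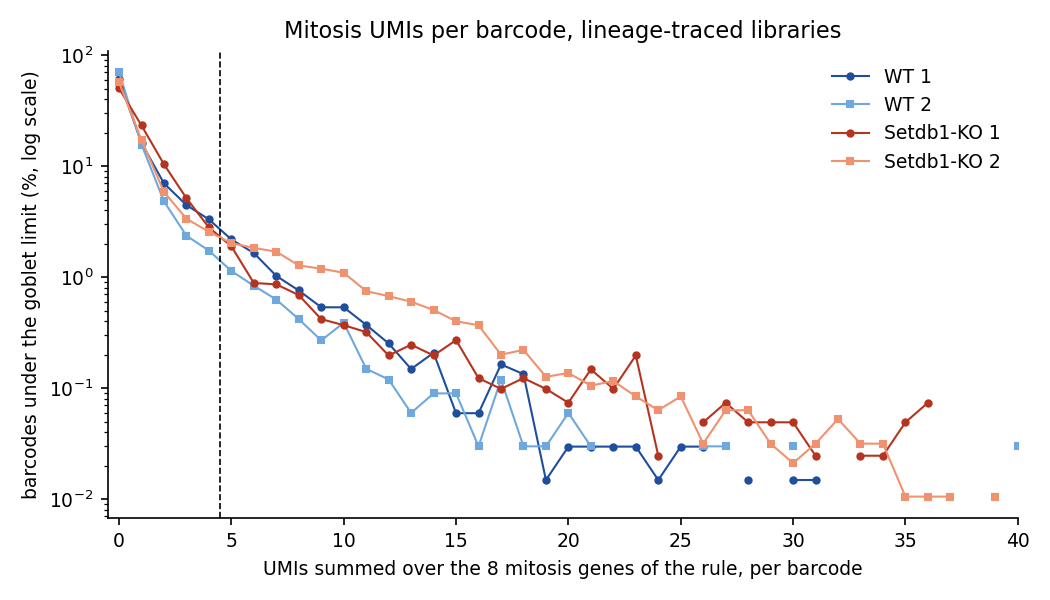
UMIs summed over the 8 mitosis genes of the rule in each barcode of the 4 lineage-traced libraries that lies within the limits and under the goblet limit (x axis), against the percentage of such barcodes on a log axis. The dashed line stands between 4 and 5 UMIs, and the curves of all libraries fall through it without a gap.

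Genes of the cell cycle outside the rule were then read in the dividing progenitors. For comparison, Olfm4-positive non-dividing cells were taken from the same libraries, with no UMI of the 8 mitosis genes and at least 2 UMIs of Olfm4, a marker of the crypt base, which gave 2442 cells. They were shallower, with medians of 1556 and 1603 UMIs in WT and 1467 and 2074 in Setdb1-KO. The Paneth defensin Defa24 alone stood at 262828 and 200412 CPM in WT non-dividing cells, against 84246 and 81669 CPM in WT dividing progenitors. A larger Paneth part lowers the unscaled CPM of other genes. Mki67 stood at 111 and 71.3 CPM (without scaling between libraries) in WT dividing progenitors and at 145 and 85.5 CPM in Setdb1-KO, against 9.97 to 29.1 CPM in the non-dividing cells. Hmgb2, a chromatin protein of dividing cells, stood at 710 to 1069 CPM against 118 to 255 CPM. The survivin gene Birc5 stood at 136 to 242 CPM against 10.4 to 28.6 CPM. In each of these genes every library of dividing progenitors lay above every library of non-dividing cells. The choice of cells by mitosis genes sets genes that go with them apart in advance. The separation therefore only describes the cells and was not tested. Genes of DNA replication and nucleotide supply differed among themselves. Tyms, thymidylate synthase, stood at 82.2 to 178 CPM in dividing progenitors and at 26.6 to 79 CPM in non-dividing cells, without overlap. Pcna, the sliding clamp of the replication fork, stood at 52.6 to 67.9 CPM in dividing progenitors and at 39.4 to 69.1 CPM in non-dividing cells, and the ranges of the helicase subunit Mcm6 overlapped too.

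**Figure D2:**
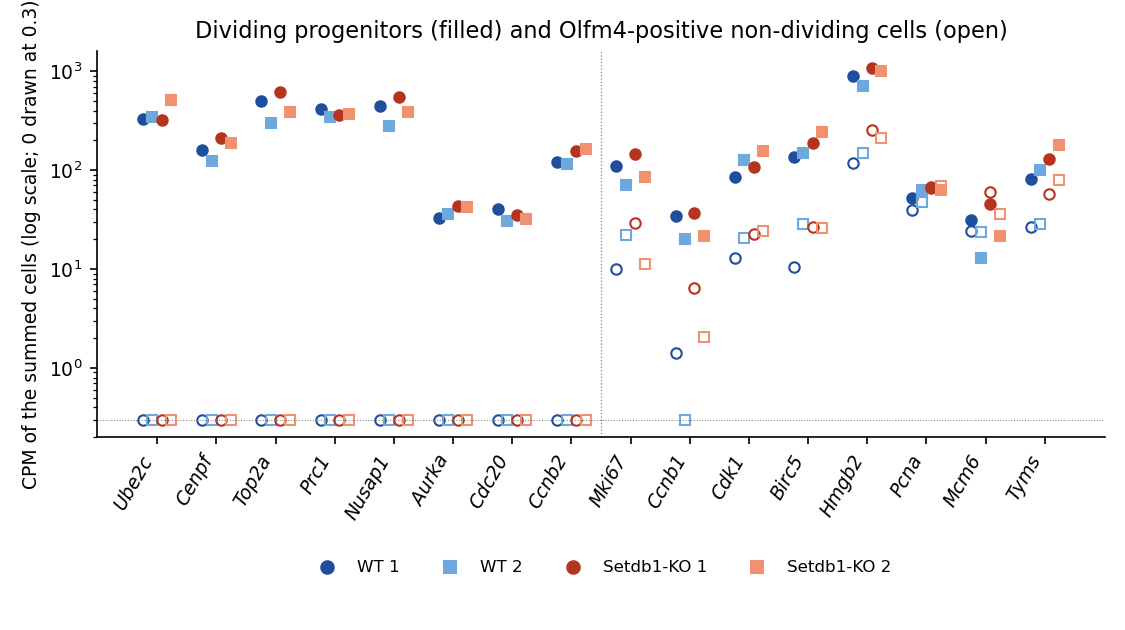
CPM (log axis, without scaling between libraries) of the 8 mitosis genes of the rule, left of the dotted line, and of 8 other cell cycle genes, right of it, in dividing progenitors (filled) and Olfm4-positive non-dividing cells (open) of the 4 lineage-traced libraries. Values of 0 are drawn at 0.3. Mki67 to Hmgb2 lie higher in the dividing progenitors of every library, which the choice of cells by mitosis genes favours, and Pcna and Mcm6 overlap.

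With each cell thinned to 1000 UMIs, 61.0% and 60.9% of WT and 67.2% and 66.2% of Setdb1-KO dividing progenitors held at least 2 UMIs of a list of 50 DNA replication genes. The remaining cells of the same libraries reached 31.1% and 24.4% in WT and 50.3% and 42.7% in Setdb1-KO. At least 2 UMIs of 69 mitosis genes outside the rule were held by 92.4% and 90.4% of WT and by 93.3% and 97.3% of Setdb1-KO dividing progenitors, against 46.1% and 42.8% of the remaining cells in WT and 61.3% and 53.9% in Setdb1-KO. The share with replication transcripts thus lay higher in both Setdb1-KO libraries in dividing and in other cells and 2 libraries against 2 allow no exact permutation p below 0.333.

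Transcripts of the crypt base were detected in only a part of the dividing progenitors. Olfm4 was detected in 68.2% and 71.3% of them in WT libraries and in 73.8% and 64.1% in Setdb1-KO libraries, a difference of -0.784 percentage points (69.8 ± 2.21 against 69.0 ± 6.87, SD, n = 2 libraries each, exact two-sided permutation p = 1). In barcodes with at least 50% Paneth UMIs, given for comparison, the share was 46.2% and 33.5% in WT and 55.6% and 43.3% in Setdb1-KO, at median depths of 8523, 6555, 3130.5 and 5290 UMIs. In low-count droplets it was 6.65% and 5.36% in WT and 14.2% and 9.48% in Setdb1-KO. With all cells thinned to 1000 UMIs, 40.6% and 37.8% of WT dividing progenitors held Olfm4, against 25.2% and 21.2% of the remaining cells. In Setdb1-KO these shares were 39.8% and 29.5% against 44.5% and 31.6%, so that there the remaining cells held it no less often. The summed Olfm4 level was 683 and 543 CPM in WT and 633 and 433 CPM in Setdb1-KO (log2 fold change -0.20, SE 0.32, edgeR adjusted p = 0.963). Lgr5, the stem cell receptor that defines the traced lineage, was counted at 15.9 and 13.4 CPM in WT and 20.6 and 15.5 CPM in Setdb1-KO (log2 fold change 0.23, SE 0.36, edgeR adjusted p = 0.964), and the genotypes overlapped in both genes.

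Fabp1, the fatty acid binding protein of the absorptive lineage, was detected in 49.7% and 63.7% of WT dividing progenitors and in 42.5% and 43.0% of Setdb1-KO dividing progenitors. Both WT libraries lay above both Setdb1-KO libraries, with a difference of -14.0 percentage points (56.7 ± 9.87 against 42.7 ± 0.402, SD, n = 2 libraries each, exact two-sided permutation p = 0.333, the smallest this design allows). The same share in Paneth-rich barcodes was 38.3% and 50.9% in WT and 13.3% and 23.1% in Setdb1-KO. In low-count droplets Fabp1 was detected in 27.6% and 26.9% in WT and in 6.44% and 16% in Setdb1-KO. Both of these shares differed between the genotypes in the same direction as that of the dividing progenitors, and their part in it was not tested. After thinning to 1000 UMIs, Fabp1 was detected in 24.3% and 35.9% of WT and in 18.5% and 16.8% of Setdb1-KO dividing progenitors. The remaining cells held it in 34.4% and 49.7% against 15.9% and 19.2%, so that it was lower in Setdb1-KO there too. The Fabp1 level was 713 and 919 CPM in WT and 327 and 538 CPM in Setdb1-KO (log2 fold change -0.91, SE 0.32, edgeR adjusted p = 0.189), which did not pass the threshold. At least 2 UMIs summed over the secretory regulators Dll1, Atoh1, Spdef, Neurog3 and Gfi1 were held by 4.44% and 9.55% of WT and by 8.31% and 5.35% of Setdb1-KO dividing progenitors (difference -0.168 percentage points, exact two-sided permutation p = 1), and the genotypes overlapped. In the remaining cells, which were shallower, the share was 2.15% and 1.24% in WT and 2.84% and 4.06% in Setdb1-KO. With all cells thinned to 1000 UMIs the order turned in every library, with at most 0.453% of dividing progenitors and 0.407% to 1.3% of the remaining cells, so that no order between these cells is read from the shares. The Notch ligand Dll1 (14.1 and 16.8 CPM in WT, 13.6 and 9.59 CPM in Setdb1-KO, edgeR adjusted p = 0.876) and the master regulator of the secretory fate, Atoh1 (26.8 and 23.5 against 26.1 and 23 CPM, edgeR adjusted p = 0.992), did not pass the threshold.

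Dividing progenitors made up 7.42% (95% Wilson interval 6.85 to 8.03) and 4.25% (3.64 to 4.95) of the cells within the limits in WT libraries. In the Setdb1-KO libraries they made up 6.83% (6.15 to 7.58) and 13% (12.3 to 13.6). The genotypes overlapped, and the difference of 4.07 percentage points (5.83 ± 2.24 against 9.91 ± 4.35, SD, n = 2 libraries each) was within the spread of the libraries (exact two-sided permutation p = 0.667). Intervals cover counting error only, and the rule counts UMIs, so shallow cells seldom qualify. The genotypes did not overlap under a limit of at least 10 mitosis UMIs (1.96% and 1.27% against 2.77% and 5.54%), among cells with at least 1000 UMIs (10.4% and 7.34% against 13.6% and 16.8%) or with cells thinned to 1000 UMIs and at least 2 mitosis UMIs required (13.9% and 7.96% against 18.6% and 14.7%), each with an exact permutation p of 0.333, the smallest this design allows. Among cells with at least 2000 UMIs, a limit set after the data were seen, the shares were 17.1% and 13.2% in WT and 22.8% and 23.7% in Setdb1-KO, without overlap (exact two-sided permutation p = 0.333). The genotypes overlapped with a limit of at least 3 mitosis UMIs (14.3% and 7.95% against 13.6% and 18.5%, exact two-sided permutation p = 0.667). They overlapped as well without doublets, with under 10% mitochondrial UMIs allowed, and with barcodes over the goblet limit left out of the total, each at the same p. Without the second Setdb1-KO library the main difference was 0.997 percentage points.

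The genotypes were then compared gene by gene in the UMIs summed over the dividing progenitors of each library. Of 8438 genes tested, 166 were lower in Setdb1-KO and 28 were higher (edgeR's quasi-likelihood test, Benjamini-Hochberg adjusted p under 0.05), which is 1.97% and 0.332% of the genes tested (2.3% together). Of the 166 lower genes, 36 are on the lists of genes of the enterocyte, the absorptive cell of the villus, or of the Paneth cell, and none is on the lists of mitosis and DNA replication. DESeq2 called 93 lower and 11 higher, all of them among those above. Leaving out the first WT library gave 107 lower and 10 higher, and leaving out the second gave 84 and 20.

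**Figure D3:**
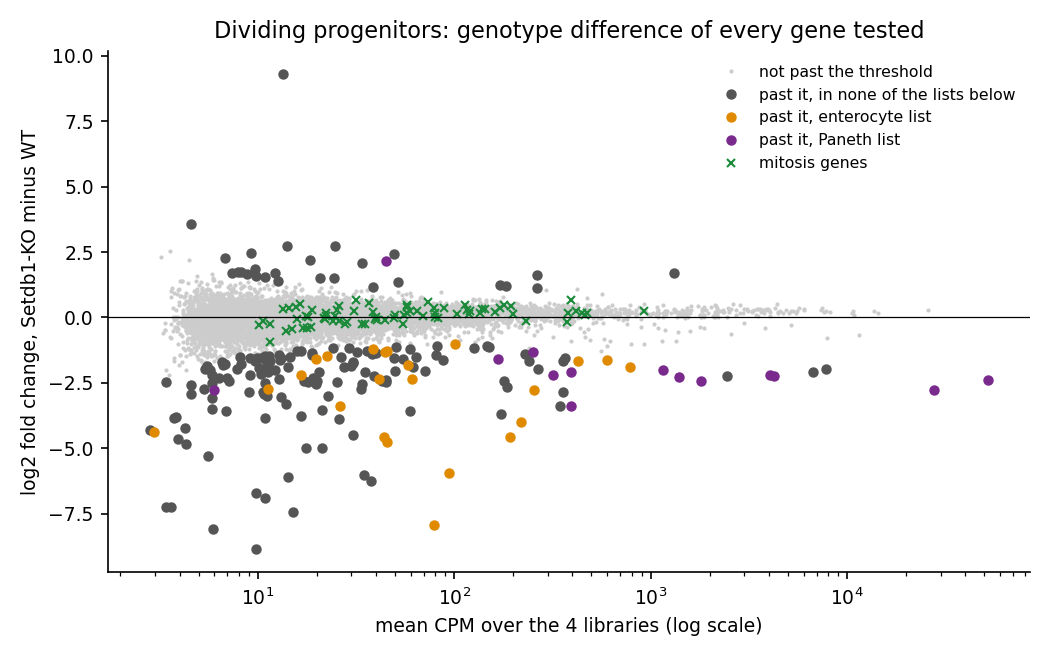
Log2 fold change between Setdb1-KO and WT dividing progenitors (y axis) against the mean CPM over the 4 libraries (log axis) for the 8438 genes tested. Large points passed the threshold, enterocyte and Paneth list genes among them in colour lie almost all below 0, and the mitosis genes (crosses) lie around 0.

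The lower genes named by rule, which required that the libraries of the genotypes not overlap, include apolipoproteins. Apoa4, an apolipoprotein of intestinal chylomicrons, stood at 131 and 242 CPM in WT libraries and at 3.26 and 2.78 CPM in Setdb1-KO libraries (log2 fold change -5.95, SE 0.42, edgeR adjusted p = 6.93e-17). Apoa1, which lies in the same cluster on chromosome 9 (GRCm38.p6, Apoa1 at chr9:46228630-46230469, Apoa4 at chr9:46240844-46243458), stood at 236 and 507 CPM against 13.6 and 16.5 CPM (log2 fold change -4.58, SE 0.38, edgeR adjusted p = 5.72e-14). For both genes every Setdb1-KO library lay far below every WT library. The remaining cells held Apoa4 at 317 and 273 CPM against 8.11 and 8.64 CPM (without scaling between libraries). They held Apoa1 at 684 and 750 CPM against 33 and 31.7 CPM. In the low-count droplets Apoa4 stood at 270 and 222 CPM against 25.1 and 5.39 CPM. The fall in these genes was thus not particular to the dividing progenitors. The third apolipoprotein of that cluster, Apoc3, fell from 52.2 and 89.5 CPM to 5.97 and 17.8 CPM (log2 fold change -2.37, edgeR adjusted p = 1.33e-06).

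Several enzymes were among the lower genes named by rule. Cyp3a11, a drug-metabolizing cytochrome P450 (chr5:145854607-145879854), stood at 123 and 191 CPM in WT and at 0 and 0.773 CPM in Setdb1-KO, where 5 UMIs were counted in all (log2 fold change -7.95, SE 0.51, edgeR adjusted p = 1.82e-18). It was detected in 20.1% and 27.4% of the WT dividing progenitors, in 0.377% of those of the second Setdb1-KO library and in 0 of 325 of the first, which allows up to 0.923% of cells with a UMI and sets no limit on cells that express the gene. Of its UMIs, droplet RNA would supply 21.2% and 5.01% in WT and 23.8% in the second Setdb1-KO library. Its relative Cyp3a13 stood at 48.6 and 68.2 CPM against 2.17 and 2.63 CPM, and the glutathione transferase Gsta1 at 437 and 382 CPM against 34.2 and 19.2 CPM. The genotypes did not overlap in any of these genes. Cyp3a and Gsta genes have near-identical relatives, so that reads may have been lost or assigned among them.

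Alpi, the alkaline phosphatase of the brush border, stood at 61.7 and 107 CPM in WT and at 3.80 and 3.25 CPM in Setdb1-KO (log2 fold change -4.58, SE 0.39, edgeR adjusted p = 1.19e-13). In the remaining cells Alpi stood at 101 and 91.4 CPM against 7.98 and 5.42 CPM (without scaling between libraries). Its neighbour on chromosome 1, Akp3, stood at 21.3 and 39.1 CPM against 0 and 0.155 CPM. Only 1 Akp3 UMI was counted in Setdb1-KO, which gives a rate 207 times higher in WT (95% interval 36.2 to 8279, counting error only). The purine enzymes Ada (45.8 and 130 CPM against 2.72 and 3.25 CPM) and Gda (32.2 and 50.3 CPM against 1.63 and 1.08 CPM) and the calcium-binding protein S100g (291 and 357 CPM against 26.1 and 24.1 CPM) also fell without overlap. Sult6b2, of the sulfotransferase family, stood at 26.8 and 29.1 CPM against 0.543 and 0.309 CPM. It rested on 3 UMIs in Setdb1-KO, and its rate was 71.6 times higher in WT (95% interval 23.7 to 354). All of these genes had edgeR adjusted p of 1.58e-12 or less.

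Slc24a5, a cation exchanger, is on none of the lists. It stood at 41.8 and 107 CPM in WT and at 2.17 and 0.464 CPM in Setdb1-KO (log2 fold change -6.26, SE 0.52, edgeR adjusted p = 3.56e-14), and was detected in 13.5% and 45.2% of WT dividing progenitors. In the low-count droplets it stood at 4.49 and 5.72 CPM in WT and had no UMI in Setdb1-KO, so that the droplets would account for 0.786% and 0.249% of its UMIs in WT dividing progenitors. The gene lies at chr2:125068127-125088677 (GRCm38.p6) and overlaps Myef2 at chr2:125080975-125123660, which fell from 53.1 and 113 CPM to 29.3 and 25.2 CPM (log2 fold change -1.57, SE 0.33, edgeR adjusted p = 9.00e-04). Reads in the overlap of both genes cannot be told apart here.

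**Figure D4:**
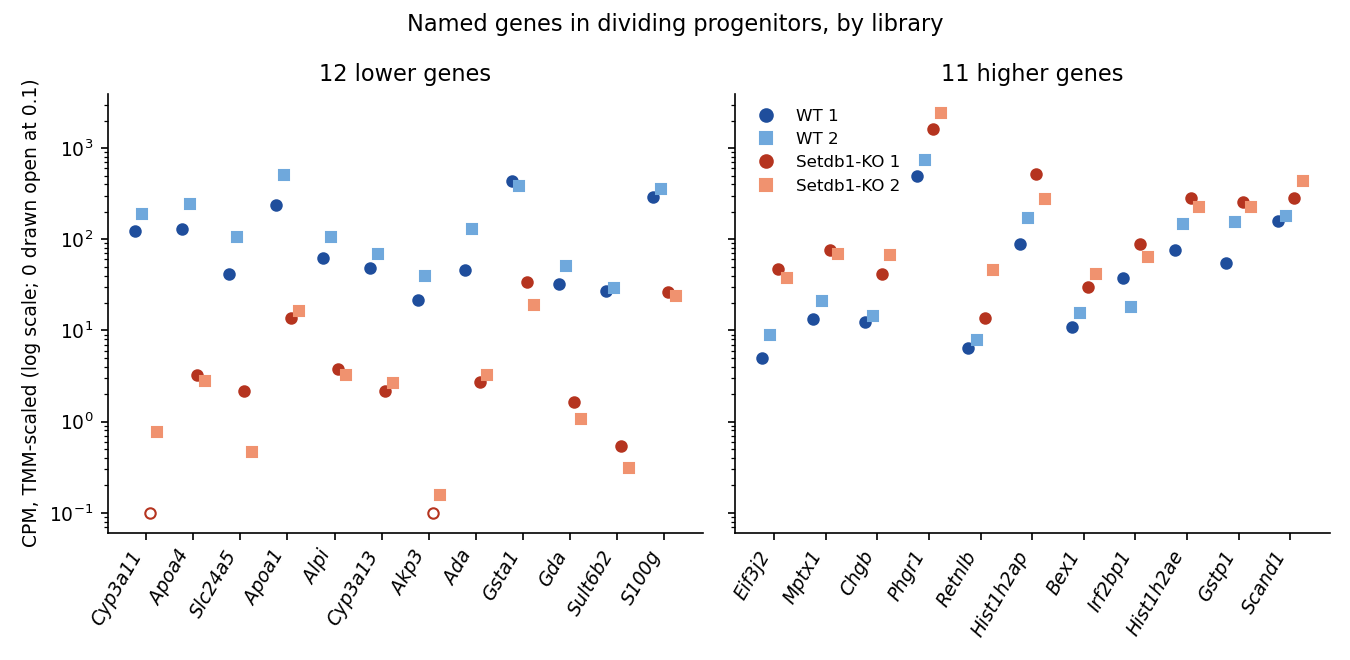
CPM with TMM scaling (log axis) of the 12 lower and 11 higher genes named by rule, in the dividing progenitors of each lineage-traced library. Values of 0 are drawn open at 0.1. In each gene both Setdb1-KO libraries lie on the same side of both WT libraries, which the rule for naming them required.

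Of 46 genes listed for absorptive progenitors and enterocytes, 42 were tested, of which 23 fell and none rose, with a median log2 fold change of -1.24 against -0.02 over all genes tested. Over all genes tested, 1.97% fell. Any listed gene near 0 in Setdb1-KO passed the filter on low counts through WT, where it is high. The filter thus favoured lower calls, and the count describes only the genes tested. Low-count droplets would supply 9.76% and 4.79% of the UMIs of this list in WT dividing progenitors and 4.55% and 6.5% in Setdb1-KO. Besides those above, the lower genes include the bile acid binding protein Fabp6 (257 and 642 CPM against 32.6 and 94.6 CPM, log2 fold change -2.77), sucrase-isomaltase (Sis, -2.19), the retinol binding protein Rbp2 (-1.66) and the keratin Krt20 (-3.40). Some transcription factors of the absorptive lineage passed the threshold and others did not. Hnf4a stood at 75.3 and 53.7 CPM in WT and at 65.7 and 54.0 CPM in Setdb1-KO (log2 fold change -0.14, edgeR adjusted p = 0.968), and Hes1, the Notch target that holds back the secretory fate, at 462 and 316 against 511 and 347 CPM (log2 fold change 0.13, edgeR adjusted p = 0.971). Cdx1, Cdx2, Klf5, Elf3 and Hnf4g were likewise not past it, while Klf4 (-1.20) and Maf (-2.73) fell, Klf4 not with DESeq2 (adjusted p = 0.304) or with Paneth-rich cells and droplet RNA removed (edgeR adjusted p = 0.0855).

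Of 19 Paneth markers, 17 were tested, of which 13 fell and 1 rose, with a median log2 fold change of -2.19, beside 1.97% lower, 0.332% higher and a median of -0.02 over all genes tested. The defensin Defa24 stood at 89351 and 85787 CPM in WT and at 21425 and 11656 CPM in Setdb1-KO (log2 fold change -2.40, SE 0.33, edgeR adjusted p = 2.07e-07). The lectin Itln1 stood at 3657 and 2430 CPM against 781 and 346 CPM, and lysozyme (Lyz1) at 2841 and 1772 CPM against 725 and 235 CPM. The genotypes did not overlap in these genes, whose near-identical defensin copies make single values uncertain. The summed Paneth list made up 15.7% and 14.9% of the UMIs of WT dividing progenitors and 4.29% and 1.94% of those of Setdb1-KO. A smaller number of cells held much of it: 10.5% and 12.1% of WT dividing progenitors and 4.00% and 0.754% of Setdb1-KO dividing progenitors had at least 20% Paneth UMIs.

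The comparison was therefore repeated, after the data were seen, without those Paneth-rich dividing progenitors and with the mean content of 1 low-count droplet subtracted for each remaining cell. Of 8011 genes then tested, 87 were lower and 16 higher (1.09% and 0.2%), and all 103 were among the 194 found without these steps. The Paneth list kept 5 lower genes of 16 tested, with a median log2 fold change of -1.57, and lost others, such as Itln1 (-1.20, edgeR adjusted p = 0.380) and Lyz1 (-0.60, edgeR adjusted p = 0.992). The enterocyte list kept 15 lower genes of 41 tested, with a median log2 fold change of -1.10. All 12 of the lower genes named by rule still passed the threshold, Apoa4 at -6.11 (edgeR adjusted p = 2.65e-10) and Cyp3a11 at -7.99 (edgeR adjusted p = 8.85e-11). Over the 166 lower genes, the droplets would supply a median of 9.08% of the WT UMIs, and under 25% in 162 of them. This counts the UMIs of all dividing progenitors, the Paneth-rich ones included. For Paneth genes the part in a typical cell was larger. A WT droplet held 108 and 105 Paneth UMIs, against 121 and 157 in the median WT dividing progenitor. Without the cells marked by a doublet caller, 118 genes were lower and 17 higher. The part of Paneth RNA in the enterocyte result was not tested further.

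Among the higher genes, Phgr1, a small protein of the gut epithelium, had by far the highest level. It stood at 491 and 745 CPM in WT and at 1631 and 2396 CPM in Setdb1-KO (log2 fold change 1.71, SE 0.33, edgeR adjusted p = 2.82e-04). It was detected in 68.7% and 74.5% of WT and in 96.3% and 99.1% of Setdb1-KO dividing progenitors, and with cells thinned to 1000 UMIs in 36.9% and 41.7% against 78% and 86.9%. The droplet RNA would supply 5.39% and 2.99% of its UMIs in WT and 3.24% and 4.96% in Setdb1-KO, and the remaining cells of the libraries held Phgr1 at 448 and 598 CPM against 1675 and 2293 CPM (without scaling between libraries). Eif3j2, a gene of an initiation factor subunit, stood at 4.99 and 8.95 CPM against 46.7 and 38.0 CPM (log2 fold change 2.72, SE 0.40, edgeR adjusted p = 1.17e-06), also without overlap.

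The histone genes Hist1h2ap (88.5 and 172 CPM against 521 and 279 CPM, log2 fold change 1.64, edgeR adjusted p = 1.03e-03) and Hist1h2ae (75.3 and 148 CPM against 283 and 228 CPM, log2 fold change 1.22, edgeR adjusted p = 0.0233) rose as well. Each encodes an H2A protein that many near-identical copies share. Gstp1, a glutathione transferase, stood at 54.5 and 154 CPM against 253 and 224 CPM (log2 fold change 1.23, edgeR adjusted p = 0.0334), and Irf2bp1, a transcriptional cofactor, at 37.7 and 17.9 CPM against 88.5 and 63.9 CPM (log2 fold change 1.35, edgeR adjusted p = 7.84e-03). Bex1 and Scand1 rose by 1.51 and 1.11 on the log2 scale. With Paneth-rich cells left out and droplet RNA subtracted, Hist1h2ae, Gstp1 and Scand1 no longer passed the threshold (edgeR adjusted p = 0.111, 0.121 and 0.0833). In all of these genes both Setdb1-KO libraries lay above both WT libraries, which the rule for naming them required.

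A further 3 of the higher genes were found in few cells. The granin Chgb of enteroendocrine cells stood at 12.3 and 14.5 CPM in WT and at 41.8 and 67.7 CPM in Setdb1-KO (log2 fold change 2.09, SE 0.36, edgeR adjusted p = 2.67e-05). It was detected in 8% and 6.03% of Setdb1-KO dividing progenitors, and a single cell held 42.9% and 20.1% of its UMIs. Droplet RNA would supply 57.8% and 19.8% of the Chgb UMIs in WT and 15.4% and 16.5% in Setdb1-KO. The pentraxin Mptx1 stood at 13.2 and 21.2 CPM against 76.0 and 69.6 CPM (log2 fold change 2.16, SE 0.35, edgeR adjusted p = 8.06e-06), with 67.9% and 22.2% of the Setdb1-KO UMIs in 1 cell. Retnlb, a goblet cell product, stood at 6.35 and 7.83 CPM against 13.6 and 45.9 CPM (log2 fold change 2.21, SE 0.43, edgeR adjusted p = 3.52e-04), and 4.00% and 3.92% of the Setdb1-KO cells held it. The droplets would supply 20.9% and 11.3% of the Mptx1 UMIs in WT and 9.57% and 19.4% in Setdb1-KO. For Retnlb these shares were 8.39% and 6.28% against 32.1% and 9.12%. Of 20 enteroendocrine markers, 4 passed the filter on low counts and 2 of them rose, Chgb and Chga (0.332% of all genes tested rose), Chga not with DESeq2 (adjusted p = 0.958). Chga rested on 18 UMIs in WT against 166 in Setdb1-KO, so that the filter favoured the group where it is high, and no direction of the list is read from these 4 genes. Of 6 tuft cell markers tested none passed the threshold, beside 2.3% of all genes tested. T cell and stromal or myeloid markers made up at most 4.17e-04% of the UMIs in any library.

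No gene of the division lists passed the threshold, beside 2.3% of all genes tested. At that share lists of this size would hold few such genes, so nothing is read about them from the count. Since cells of both genotypes had to hold 5 UMIs of mitosis genes, the level of genes that go with them is in part set by the choice of cells. Of 69 mitosis genes outside the rule 68 were tested and none passed it, with a median log2 fold change of 0.13, and of 50 DNA replication genes 49 were tested and none passed it (median 0.21). Mki67 stood at 118 and 74.9 CPM in WT and at 132 and 87.2 CPM in Setdb1-KO (log2 fold change 0.15, SE 0.31, edgeR adjusted p = 0.966), and the genotypes overlapped. Pole, the catalytic subunit of DNA polymerase epsilon, stood at 8.62 and 10.1 CPM against 17.4 and 18.6 CPM (log2 fold change 0.98, edgeR adjusted p = 0.290), and the microtubule regulator Stmn1 at 225 and 385 CPM against 427 and 527 CPM (log2 fold change 0.66, edgeR adjusted p = 0.583). In data simulated from these libraries, 17% of genes changed by 1 on the log2 scale and 79% of those changed by 2 were recovered, so that changes of the smaller size would mostly be missed at this depth.

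The other lists held few genes past the threshold, beside 2.3% of all genes tested. At that share lists of this size would hold few or none, so a count of none is not read as a result about a list. None passed it among 29 crypt stem cell and Wnt target genes tested (median 0.08), 17 genes of secretory specification (-0.08), 12 of the Notch pathway (-0.01), 26 of H3K9 methylation (0.15), 17 of necroptosis (-0.23) and 14 of dissociation stress (-0.41). Of 80 ribosomal protein genes tested none passed it either, although 79 had a positive log2 fold change (median 0.26), and of 83 oxidative phosphorylation genes none did (median 0.16). Among 19 goblet products outside the rule, Ang4, Ccl6 and Fxyd3 fell and Retnlb rose, beside 1.97% lower and 0.332% higher over all genes tested. Ang4 is a Paneth cell product too. Without Paneth-rich cells and with the droplet RNA subtracted, Ang4 and Fxyd3 still passed the threshold (edgeR adjusted p = 0.0127 and 4.30e-05), and Ccl6 did not (edgeR adjusted p = 0.908).

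In immune genes, 1 of 16 MHC class I presentation genes tested fell, beside 1.97% of all genes tested. This was H2-Q2, at 32.2 and 49.2 CPM in WT and 4.89 and 4.79 CPM in Setdb1-KO (log2 fold change -3.02, SE 0.37, edgeR adjusted p = 1.30e-08). All 6 MHC class II genes tested had negative values that did not pass the threshold (median -0.79), with Cd74 at 604 and 877 CPM against 311 and 524 CPM (edgeR adjusted p = 0.310). Of 20 interferon and nucleic acid sensing genes tested 2 rose (0.332% of all genes tested did), Ifi27l2a (0.908 and 0 CPM against 10.3 and 6.96 CPM, edgeR adjusted p = 1.80e-03) and Bst2 (4.54 and 21.2 CPM against 19.6 and 37.7 CPM, edgeR adjusted p = 0.0341), the latter with overlap. DESeq2 passed neither (adjusted p = 0.180 for Ifi27l2a), and without Paneth-rich cells and droplet RNA Bst2 did not pass (edgeR adjusted p = 0.163). Ifi27l2a rested on 2 WT UMIs, so that it passed the filter on low counts through Setdb1-KO, where it is high, and nothing is read about the list from this count. Its rate was 12.7 times higher in Setdb1-KO (95% interval 3.37 to 107). Of 20 p53 targets tested, again beside 1.97% of all genes, Cdkn1a alone fell (15.4 and 21.2 CPM against 10.3 and 4.48 CPM, edgeR adjusted p = 0.0368, but 0.645 without Paneth-rich cells and droplet RNA, and not with DESeq2, adjusted p = 0.775), and among 9 nuclear RNAs Neat1 alone (100 and 88.3 CPM against 41.3 and 26.6 CPM, edgeR adjusted p = 7.52e-04).

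Of 5 regenerative and fetal-like genes tested, where 1.97% of all genes tested were lower and 0.332% higher, Areg fell (7.26 and 14.5 CPM against 0.543 and 0.928 CPM), a growth factor of the epidermal family. Areg rested on 7 UMIs in Setdb1-KO, so that it passed the filter on low counts through WT, where it is high. Nothing is read about the list from this gene. With Paneth-rich cells left out and droplet RNA subtracted, Areg no longer passed that filter. Among 8 markers of the large intestine tested, Mptx1 rose and Car1 fell, and with 1 gene in each direction nothing is read about the list. Car1, a carbonic anhydrase, stood at 121 and 1148 CPM in WT and at 39.1 and 78.9 CPM in Setdb1-KO (log2 fold change -3.38, SE 0.47, edgeR adjusted p = 3.03e-07), with its level in the second WT library far above the other 3, and DESeq2 did not pass it (adjusted p = 0.664).

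The same cell rule was applied to the Lgr5+ sort, from mice of the same genotypes without the nTnG reporter, where 7454 of 25693 cells within the limits qualified. There, 71 genes were lower and 77 higher in Setdb1-KO of 11861 tested (0.599% and 0.649%). The libraries of both sorts are separate, and 150 of the 166 lower and 26 of the 28 higher genes of the lineage-traced dividing progenitors were tested in both. Of the 166 lower genes 4, or 2.41%, were among the 71, which is 5.63% of those. These were Slc24a5, Neat1, Adh6a and the clone 2210407C18Rik, while 11 of the 166 were higher in the Lgr5+ sort. Of the 28 higher genes 3 were also higher there (10.7%, and 3.90% of the 77), Phgr1, Eif3j2 and Gm42031, and Bst2 was lower. Adh6a and the clones were named after their values were seen.

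The test of the difference between the sorts found 94 genes with a lower effect in the lineage-traced dividing progenitors and 11 with a higher effect, of 11639 tested (0.808% and 0.0945%). In the enterocyte list 18 genes of 45 tested had a lower effect and none a higher effect. The filter on low counts kept genes such as Cyp3a11 here through lineage-traced WT, where they are high, which favoured such calls too. Apoa4 stood at 4.66 and 4.02 CPM in WT and at 7.39 and 9.44 CPM in Setdb1-KO dividing cells of the Lgr5+ sort, which gave a log2 change of 0.97 (edgeR adjusted p = 0.0523) against -5.95 in the lineage-traced dividing progenitors. The level in lineage-traced WT was thus far above that in either genotype of the Lgr5+ sort. Rbp2 went in opposite directions, with 121 and 172 CPM against 509 and 419 CPM in the Lgr5+ sort (log2 fold change 1.66, edgeR adjusted p = 1.86e-03). The enterocyte list as a whole had 5 higher and no lower genes of 42 tested there.

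**Figure D5:**
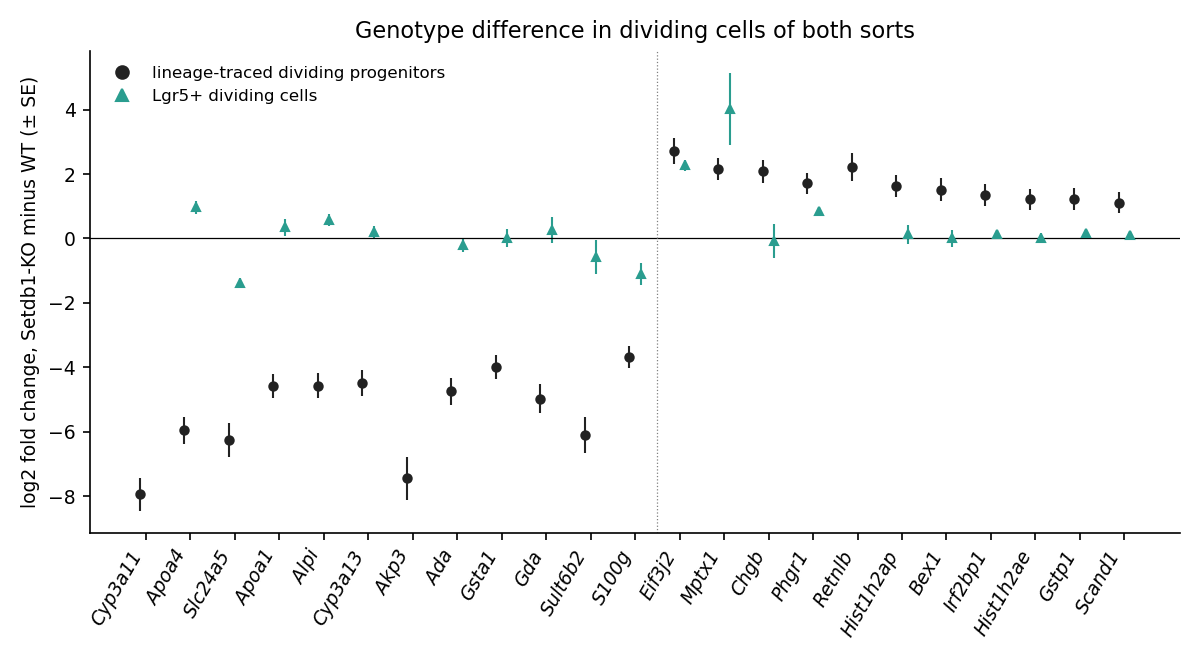
Log2 fold change (Setdb1-KO minus WT, with its SE) of the named genes in lineage-traced dividing progenitors (circles) and in dividing cells of the Lgr5+ sort (triangles, drawn where the gene was tested). The 12 lower genes, left of the dotted line, stand between -3.69 and -7.95 in the lineage-traced cells. Those of them tested in the Lgr5+ sort, Cyp3a11 not among them, stand between -1.37 and 0.97 there.

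Some genes passed the threshold in the Lgr5+ sort and not in the lineage-traced dividing progenitors. Setdb1 stood there at 11.4 and 10.2 CPM in WT and at 5.35 and 6.04 CPM in Setdb1-KO (log2 fold change -0.92, SE 0.16, edgeR adjusted p = 0.0313), and the difference from the lineage-traced value did not pass the threshold (1.16, edgeR adjusted p = 0.170). Olfm4 fell there by 0.92 on the log2 scale (edgeR adjusted p = 4.15e-03), and Cd74 by 2.07 (edgeR adjusted p = 0.0369) with 4 more of the 7 MHC class II genes tested, where 0.599% of all genes tested fell. For neither gene did the difference between the sorts pass the threshold, with edgeR adjusted p of 0.431 for Olfm4 and 0.426 for Cd74. Free RNA differed between the sorts, with 4.81% to 10.2% Paneth UMIs in the low-count droplets of the Lgr5+ sort, and its part in these differences was not tested.

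Within the lineage-traced libraries, the Olfm4-positive non-dividing cells gave 175 lower and 24 higher genes of 7078 tested (2.47% and 0.339%). Apoa4 had a log2 fold change of -5.63 in them against -5.95 in the dividing progenitors, Cyp3a11 -7.83 against -7.95, and Phgr1 1.94 against 1.71. Both classes come from the same libraries and the same suspension, so their values are given side by side only. The non-dividing cells were shallower and held more Paneth RNA, and the part of either in the differences below was not tested. The test of the difference between the classes, with the library as a block, found 12 genes of 8954 with a higher effect in the dividing progenitors (0.134%) and none with a lower effect. In Chgb (2.09 against -0.30) and Mptx1 (2.16 against 0.41) the dividing progenitors alone passed the threshold. Fabp6 (-2.77 against -4.17), Rbp2 (-1.66 against -2.72), Spink1, Guca2b and Car1 fell in both, and by less in the dividing progenitors. DESeq2 passed none of these genes (46 at an unadjusted p under 0.05), and without Paneth-rich cells edgeR passed none either (351 at an unadjusted p under 0.05).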

How the data were processed

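Crypt cells of the ileum were sorted for GFP and measured by droplet single-cell RNA-seq with the 10x Genomics 3′ chemistry. The authors deposited raw UMI counts per gene and barcode, unfiltered, for 32286 features that include GFP. Per the labels, Cell Ranger 6.1.1, Seurat 5.0.3 and the build mm10 were named in the submitters' processing notes, and whether counting used strand is not given in the sources used here. The series holds 18 samples, and its ATAC-seq, total RNA-seq and H3K9me3 profiles were not used here.

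Barcodes were filtered and classed by the rule in the opening of the results, no clusters were made, and doublets were kept (Scrublet in scanpy 1.11.5, marking 0.8% per 1000 cells, served as an alternative). UMIs were summed per library over the cells, and libraries, not cells, were the replicates. Genes were tested with edgeR 4.0.16 in R 4.3.3 (filterByExpr, TMM, quasi-likelihood F test, Benjamini-Hochberg adjustment over all genes tested, threshold 0.05), with DESeq2 1.42.0 as an alternative. Shares were compared with an exact permutation test (scipy 1.17.1), and cells were thinned to 1000 UMIs where depth mattered. Symbols were matched by name to RefSeq (GRCm38.p6) for locations and promoters. The edgeR step was tested on data simulated for 8438 genes, with 200 genes changed.

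Named genes were Setdb1, the genes of the rule, Mki67, Lgr5, Olfm4, Fabp1, Dll1 and Atoh1. To these came up to 12 genes in each direction with the smallest p among those past the threshold, with a log2 fold change of at least 1, at least 20 CPM in the higher group and no overlap of the libraries, and up to 4 genes of each of 24 lists by p, with clone names left out. Only 11 higher genes met this. All other genes were named after their values were seen. The dividing progenitors and the lists were chosen with earlier results of these data known. Paneth-rich cells, low-count droplets and the limit of 2000 UMIs per cell were introduced after the data were seen. Totals were 16881518 to 43046925 UMIs per lineage-traced library, and intervals cover counting error only.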

Additional observations from a re-analysis of the deposited data

Results flagged for a closer look

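These results were singled out because the genotype effect differed, by a test of the difference itself, between sets of cells. Between the dividing progenitors and the dividing cells of the Lgr5+ sort, 105 genes differed. Among the genes named by rule, the difference of the log2 fold changes (lineage-traced minus Lgr5+) was -9.50 for Cyp3a11, -6.88 for Apoa4, -5.59 for Sult6b2, -5.23 for Gda and -5.09 for Alpi. It was -4.88 for Slc24a5, -4.86 for Apoa1, -4.63 for Cyp3a13, -4.41 for Ada, -4.01 for Gsta1 and -2.52 for S100g, with edgeR adjusted p from 3.49e-06 for Apoa4 to 0.0191 for S100g. Cyp3a11 did not pass the filter on low counts in the Lgr5+ sort alone.

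Between the dividing progenitors and the Olfm4-positive non-dividing cells of the same libraries, 12 genes differed. The difference was 2.20 for Chgb (edgeR adjusted p = 6.06e-05) and 1.85 for Mptx1 (edgeR adjusted p = 5.72e-04), where a positive value is a more positive log2 fold change in the dividing progenitors, not a higher level. In both genes a large part of the Setdb1-KO UMIs of dividing progenitors was in a single cell. DESeq2, or edgeR without Paneth-rich cells, called 0 genes in this comparison (46 and 351 at an unadjusted p under 0.05). With Paneth-rich cells left out and the droplet RNA subtracted, edgeR called 4 genes, all with a lower effect in the dividing progenitors. Of these, 1 was among the 12, with its sign turned.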

How the results depend on the processing

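The 194 genes past the threshold in the dividing progenitors became 104 with DESeq2, 122 with a limit of at least 10 mitosis UMIs, 68 with cells thinned to 1000 UMIs, 85 in cells without an Olfm4 UMI, and 103 without Paneth-rich cells and with the droplet RNA subtracted. Leaving out single libraries gave 104 to 267, the lowest without the second WT library, and 117 without the first. The replicate numbers share only a number here, with a correlation of deviations of 0.25 in the lineage-traced and 0.11 in the Lgr5+ libraries, and with the replicate number as a block 322 genes passed. The enterocyte list had 13 to 23 and the Paneth list 7 to 16 genes past the threshold without single libraries.

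In the Lgr5+ sort the 148 genes became 756 without a filter on low counts and 433 with the block, and 124 to 543 without single libraries, with 543 and 276 when the first or the second Setdb1-KO library was left out. The 105 differences between the sorts became 325 without the filter and 68 to 215 without single libraries, lowest without the second lineage-traced WT library and highest without the first Setdb1-KO library. With Paneth-rich cells left out and the droplet RNA subtracted, 4 differences from the Olfm4-positive non-dividing cells passed, all lower. Of these, 1 was among the 12 of the main comparison, which were all higher, so that it turned its sign. The 12 differences became 0 with DESeq2 (46 at an unadjusted p under 0.05), 40 with RLE scaling, 30 without the filter, 0 without Paneth-rich cells alone (351 at an unadjusted p under 0.05) and 5 with the droplet RNA subtracted alone. Without single libraries they were 4 to 63, with 4 and 63 when the first or the second WT library was left out and 24 without the second Setdb1-KO library. The cause of these changes was not tested.

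The share of dividing progenitors differed by 0.997 to 7.15 percentage points without single libraries, and the Fabp1 share by -20.9 to -6.99. The Olfm4 share ran from -5.64 to 4.07 and turned positive without the second WT library (0.782) and without the second Setdb1-KO library (4.07). The share with secretory transcripts ran from -2.73 to 2.39 without single libraries, with 2.39 without the second WT library and 1.31 without the second Setdb1-KO library. Its difference was 0.0467 after thinning and -6.11 (14.3% in WT against 8.22% in Setdb1-KO) with a limit of at least 10 mitosis UMIs. Over all settings, the 38 named genes past the threshold kept their side of it in 635 values and lost it in 99, and none turned its direction. The most were lost without the first WT library, 16, and with DESeq2 or without the second WT library, 10 each. With 157 cells in the second WT library, genes of low level rested on few UMIs.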

Other observations

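Some lower genes had no UMI at all in the Setdb1-KO dividing progenitors, and were picked out after their values were seen. Tmprss15, the enteropeptidase that activates trypsin, stood at 22.2 and 16.8 CPM in WT libraries and was detected in 5.68% and 7.01% of the WT dividing progenitors. Its WT rate, pooled over the libraries, was 53.9 times that of 3 UMIs over the Setdb1-KO group, the limit taken for no UMI. This covers neither the counting error in WT nor the spread between libraries. Slc30a10, a manganese transporter, stood at 11.3 and 12.3 CPM in WT, and its pooled WT rate was 30.3 times the same limit. Both genes passed the filter on low counts through WT, where they are high.

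Dividing progenitors with both Olfm4 and Fabp1 transcripts made up 33.6% and 47.1% in WT libraries and 30.5% and 26.5% in Setdb1-KO libraries. Those with neither made up 15.6% and 12.1% against 14.2% and 19.3%. Detection depends on depth, so these groups are not read as kinds of cells, and they were not compared further.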
